A study of Mus musculus with 4 samples.

Results

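Club secretory nuclei of the mouse lung were taken from 4 libraries of single-nucleus RNA sequencing, and 13487 of the 134745 barcodes with 1500 or more UMIs (unique molecular identifiers, each standing for 1 counted RNA molecule) were members. A member held no more than 2 UMIs of Ptprc, which encodes the leukocyte phosphatase CD45, and no more than 3 UMIs summed over Tacr1, Lgr6, Fer1l6 and Vtcn1, which mark another airway secretory class. It also held at least 3 of the 6 genes Atp2b2, Nwd2, Col23a1, Kcnk2, Crb1 and Slc4a5. The share of its UMIs from those 6 genes was at least 1.5 times their share in the barcodes with 300 to 800 UMIs of its own library, which served as its background. Measured expression therefore chose the members, and their difference from other barcodes is given as a description with no test.

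The study asked how senescent endothelium changes the lung in pulmonary hypertension. The libraries came from the whole lungs of 2 WT mice, labelled C57/BL6J, and 2 VEcad-TRF2DN-Tg mice (Tg), 8 to 9 weeks old, with 1 lung per library. Tg mice express a dominant-negative form of TRF2, a protein that protects chromosome ends, under the vascular endothelial cadherin promoter, so the transgene is aimed at endothelial cells and not at the airway. By the study's methods all 4 mice, WT controls included, were male and had been kept in chronic hypoxia. Whether the age given includes the weeks of hypoxia is not stated. The transgene is human TRF2 and was not among the genes counted, so the label of a library could not be checked by it.

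Club cells are dome-shaped secretory cells of the small airways. They release secretoglobins onto the airway surface, oxidise inhaled chemicals with cytochrome P450 enzymes such as CYP2F2, and divide to replace themselves and ciliated cells after injury. Notch signals from neighbouring cells hold them in the secretory state, and the transcription factor NKX2-1 acts on many of their genes.

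The 6 genes that chose the nuclei encode mainly membrane proteins: Atp2b2 a calcium pump that exports calcium from the cell, Kcnk2 a potassium leak channel, Slc4a5 a bicarbonate transporter, Crb1 an apical polarity protein, Col23a1 a transmembrane collagen, and Nwd2 a protein with NACHT and WD repeats. Levels are given as CPM, the UMIs of a gene in the summed members of a mouse scaled to a total of 1000000 UMIs. Atp2b2 was at 218 in WT replicate 1, 235 in WT replicate 2, 202 in Tg replicate 1 and 171 in Tg replicate 2, against 23.97, 33.5, 11.8 and 17.1 CPM in the other barcodes of the same mice. Slc4a5 was at 320 and 370 CPM in WT members and at 599 and 476 CPM in Tg members. Col23a1 was at 1476 and 1521 CPM in WT and 1776 and 1828 CPM in Tg. Kcnk2 lay between 690 and 891 CPM, Nwd2 between 220 and 357 CPM, and Crb1 between 66.6 and 87.9 CPM. The 4 genes of the other airway secretory class, whose UMIs the rule capped in each member, summed to 246, 120.5, 149.9 and 122.3 CPM in members and to 498, 106.6, 235.4 and 112.2 CPM in the other barcodes.

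Start sites of these genes are shown because they are the sequences at which the defining genes are transcribed. RefSeq windows of 300 bases, from 250 bases before to 50 bases after each start, were available for all 6 genes in 11 windows. They were searched on both strands for CTCAAG, a core that NKX2-1 can bind, and its reverse complement CTTGAG. It was found in 3 of the 11 windows, against 15.9% of all 32851 windows. These belong to 3 of the 6 genes, Nwd2, Kcnk2 and Slc4a5, against 18% of 27025 genes with a window, and the 6 genes have more windows each. Each match is a description of letters and not of binding. The sequences are printed 5′ to 3′ on the gene's strand, from build GRCm38.p6, with the matches in capitals. The Nwd2 window is chr5:63648853-63649152 on the plus strand, the Kcnk2 window is chr1:189402224-189402523 on the minus strand, and the Slc4a5 window is chr6:83237125-83237424 on the plus strand.
Nwd2: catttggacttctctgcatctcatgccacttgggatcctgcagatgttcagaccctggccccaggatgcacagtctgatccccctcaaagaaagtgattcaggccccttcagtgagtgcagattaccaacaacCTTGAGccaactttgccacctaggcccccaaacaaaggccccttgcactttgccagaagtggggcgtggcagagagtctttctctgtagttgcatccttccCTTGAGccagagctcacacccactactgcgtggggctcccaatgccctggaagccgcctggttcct
Kcnk2: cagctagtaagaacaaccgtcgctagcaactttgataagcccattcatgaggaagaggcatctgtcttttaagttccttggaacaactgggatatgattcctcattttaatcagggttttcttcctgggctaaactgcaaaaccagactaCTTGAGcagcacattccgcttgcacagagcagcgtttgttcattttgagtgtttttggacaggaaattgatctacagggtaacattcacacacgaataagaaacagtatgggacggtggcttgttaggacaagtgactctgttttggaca
Slc4a5: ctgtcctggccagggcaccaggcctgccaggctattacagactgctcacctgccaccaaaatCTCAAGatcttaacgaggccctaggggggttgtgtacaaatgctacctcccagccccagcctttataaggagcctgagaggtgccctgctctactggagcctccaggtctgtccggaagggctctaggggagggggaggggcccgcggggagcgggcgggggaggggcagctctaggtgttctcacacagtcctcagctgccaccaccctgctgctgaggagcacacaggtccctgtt

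The genes that stood highest in members relative to all other barcodes were ranked by their lowest ratio over the 4 mice. The first 12 were the 6 defining genes together with Gm15883, Gm32857, Gask1a, Gm44167, Lpar3 and 4932411K12Rik. Lpar3, a receptor for lysophosphatidic acid, was at 412, 385, 345 and 429 CPM in members, 3.95 to 6.07 times its level in the other barcodes. Gask1a, a Golgi-associated protein of the FAM198 family, was 4.48 to 8.09 times higher in members, at 29.95 to 37.8 CPM. Gm15883 is an antisense transcript that lies within Cyp2f2, at chr7:27124481-27130674 on the minus strand of mm10, and it was 5.44 to 6.77 times higher in members. Gm32857 is a lincRNA on chromosome 14 and was 4.70 to 14.9 times higher in members. Nuclei of the other airway secretory class, 60 of them in WT replicate 2, gave smaller contrasts for some genes. Gm15883 was at 72.2, 89.1, 741 and 530 CPM there, against 142, 124, 1102 and 806 CPM in members. 4932411K12Rik was at 7.17, 10.5, 5.53 and 6.30 CPM, against 11.8, 6.63, 5.34 and 6.44 CPM. Gm32857, Gask1a, Gm44167 and Lpar3 were lower there than in members in all 4 mice.

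The label was checked against 26 club markers. Of these, 14 were higher in members than in other barcodes in all 4 mice, 8 were lower in all 4 and 4 were mixed. Against free RNA, taken from barcodes with 10 to 100 UMIs, 9 of the 26 were higher in all 4 mice, and Cldn10, Pigr, Pon1, Cbr2 and Hp were among the 14 but not among the 9. Cyp2f2, the P450 enzyme of club cells, was at 1855, 1720, 2704 and 2317 CPM in members, which was 1.96, 2.04, 2.50 and 2.28 times its level in other barcodes. Scnn1b, a subunit of the epithelial sodium channel, was 2.59 to 5.14 times higher in members, Gabrp, a GABA receptor subunit of airway secretory cells, 2.69 to 3.87 times and Aldh1a1, which makes retinoic acid, 1.74 to 2.40 times. These genes of the club programme therefore stood above the other barcodes in every mouse.

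The secretoglobin messages did not stand apart in this way. Scgb1a1, the secretoglobin that defines club cells, was at 7683 and 9214 CPM in the WT members and at 38736 and 14668 CPM in the Tg members. These values were 0.792, 0.917, 1.00 and 0.931 times those of the other barcodes of the same mouse. In barcodes with 10 to 100 UMIs, which hold free RNA, Scgb1a1 was higher still, at 10178, 18129, 96146 and 34203 CPM. Scgb3a1 and Scgb3a2 were also below the other barcodes in all 4 mice. The mRNA of the main secretoglobin therefore could not be used to tell members from other barcodes, and the name club secretory rests on the other markers, among them Cyp2f2, Scnn1b, Gabrp and Aldh1a1. The plot of member levels over other barcodes shows this split.

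**Figure D1:**
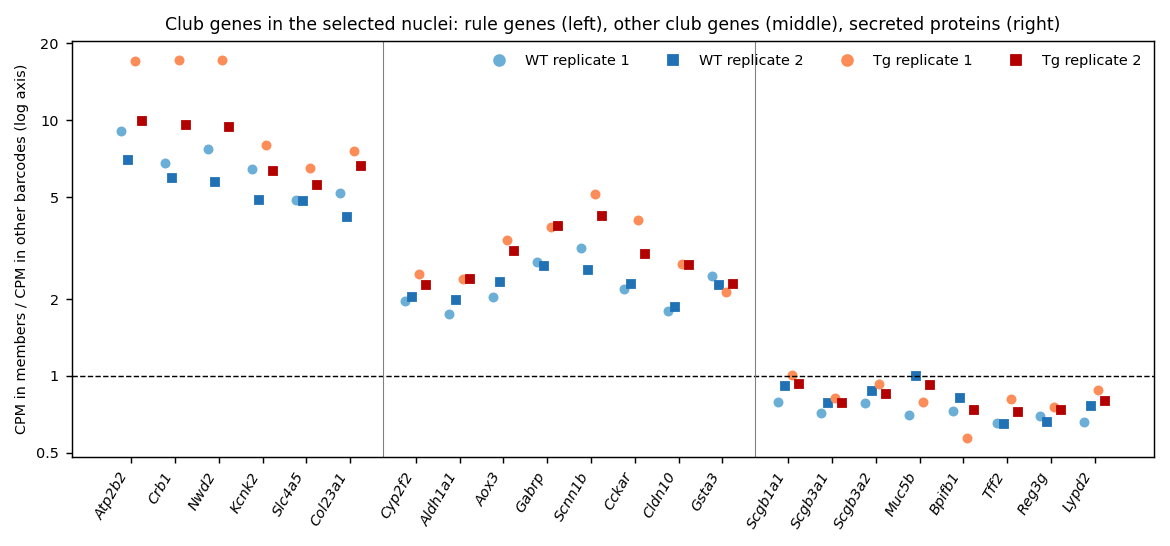
CPM in club secretory nuclei over CPM in all other barcodes with 1500 or more UMIs (log axis, dashed line at 1), with 1 point per mouse, for the 6 defining genes on the left, other club genes in the middle and secreted proteins on the right. Cyp2f2, Gabrp and Scnn1b lie above 1 in every mouse, while Scgb3a1 and Scgb3a2 lie below 1 and Scgb1a1 lies between 0.792 and 1.00.

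Markers of other cells were present in members. The alveolar type 2 list of 8 genes summed to 4600, 5865, 7892 and 8267 CPM in members and to 5193, 6202, 9692 and 9963 CPM in the other barcodes. The macrophage list summed to 1714, 4035, 1350 and 3047 CPM in members and to 2904, 5813, 2364 and 4902 CPM in the others. For comparison, the 6 defining genes together summed to 3232, 3189, 3775 and 3628 CPM in members. The endothelial list of 8 genes summed to 671, 615, 658 and 654 CPM in members, against 1071, 886, 1066 and 979 CPM in the other barcodes. Of members, 7.42% and 12.97% in WT and 18.6% and 14.7% in Tg also met a rule of the same form for another cell class, and these are doublet candidates. Estimated from endothelial, macrophage and lymphocyte markers, free RNA made up 71.2% and 68.1% of member UMIs in WT and 51.3% and 61.6% in Tg. Between 0 and 7 member barcodes were shared by any pair of libraries.

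Members made up a larger share of the barcodes in both Tg mice. They numbered 1994 of 26933 barcodes in WT replicate 1 (7.40%, exact 95% binomial interval 7.09 to 7.72%) and 2567 of 38543 in WT replicate 2 (6.66%, 6.41 to 6.91%). In Tg they numbered 3908 of 25269 (15.5%, 15.0 to 15.9%) and 5018 of 44000 (11.4%, 11.1 to 11.7%). The intervals cover counting error only. The study kept fewer nuclei after its own quality filters, which were not applied here. These values are therefore shares of barcodes and not of cells. The share was 7.03% ± 0.53 (SD, n = 2) in WT and 13.4% ± 2.87 (SD, n = 2) in Tg, a difference of 6.40 percentage points. The groups did not overlap, and the two-sided exact permutation test gave p = 0.333, the smallest value that 2 mice against 2 allow.

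The share criterion of the rule asked for less in Tg mice. The level of the 6 genes in the barcodes with 300 to 800 UMIs was 595 and 664 CPM in WT and 258 and 364 CPM in Tg, so that the share a member had to reach was 892 and 996 CPM in WT and 387 and 546 CPM in Tg. With 1 threshold for all mice, at 1.5 times the highest of these levels, the mean share was 6.97% in WT and 13.02% in Tg. That threshold kept 13144 of the 13487 members. Under the rule as given, barcodes that failed on this criterion alone numbered 135 and 219 in WT and 0 and 42 in Tg. An equal threshold could therefore change the shares little, and it does not test the other criteria. Other barcodes were also deeper in Tg, with a median of 1834 and 1948 UMIs in WT and 2442 and 2398 UMIs in Tg. Among barcodes with at least 3000 UMIs, under the rule as given, the shares were 17.2% and 11.2% in WT and 20.6% and 18.01% in Tg, and at 3 times the highest level the means were 10.5% and 15.0%. The part of depth in the difference was otherwise not tested. The bars of shares by mouse give the forms of the rule side by side.

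**Figure D2:**
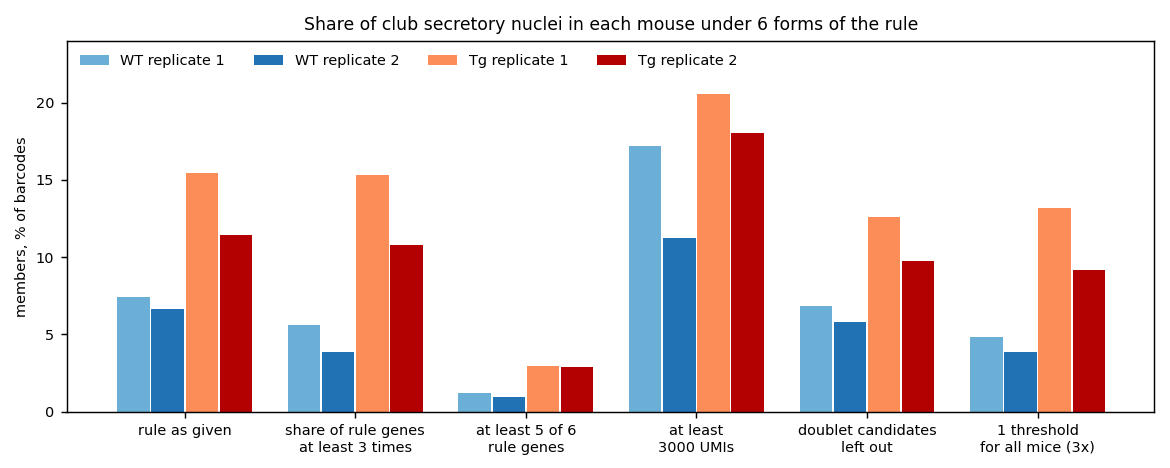
Bars give the percent of barcodes that were club secretory nuclei in each mouse under the rule as given and under 5 stricter or altered forms of it, 1 bar per mouse. Both Tg mice lie above both WT mice in each form, 15.5% and 11.4% against 7.40% and 6.66% under the rule as given.

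On the share criterion few members lay at the threshold, while on the number of genes many did. Between 1.5 and 1.6 times the level in shallow barcodes there were 18, 25, 0 and 11 members in the 4 mice, and between 1.4 and 1.5 times there were 25, 24, 0 and 9 barcodes that failed. Members with exactly 3 of the 6 genes made up 56.2% and 64.6% in WT and 44.4% and 40.7% in Tg. Barcodes that met every other criterion with 2 of the 6 genes numbered 3448 and 4453 in WT, more than the members there, and 2251 and 3516 in Tg. Members held a median of 2871, 2310, 2865.5 and 3514 UMIs in WT replicate 1, WT replicate 2, Tg replicate 1 and Tg replicate 2.

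To ask what differed between genotypes, UMIs were summed over members within each mouse and the sums of 2 WT and 2 Tg mice were then tested against each other in edgeR (quasi-likelihood). Of 16375 genes, 832 had an adjusted p under 0.05 (5.08%), and 745 of these were higher in Tg (4.55%) and 87 lower (0.531%). The sums rested on 6696605 and 8748783 UMIs in WT and 13120094 and 20327739 UMIs in Tg. With DESeq2 in its place, 1240 were higher and 444 lower. CPM did not overlap between the groups for all 832, as for 63.3% of all genes tested. The count fell sharply without Tg replicate 1, a fit in which the Tg group holds 1 mouse. All 828 of the called genes that could be tested there kept their sign, but with groups that did not overlap a sign could hardly turn. Once the free RNA profile was subtracted from the sums, none passed and 817 had an unadjusted p under 0.05, and 498 of the 577 that could still be tested kept their sign. A change in RNA per nucleus and a change in the RNA that floats around the nucleus cannot be told apart in these sums where a gene moved alike in both.

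The genes that rose were unevenly spread over gene classes. Antisense transcripts made up 1003 of the genes tested, and 288 of them rose and 4 fell. Their median log2 fold change of Tg over WT was 1.68, against 0.02 over all genes tested. The filter on low counts asked for counts in 2 mice, so a gene hardly counted in WT could enter through Tg alone. Such a gene can be called higher but hardly lower. This can raise the median and the count of rises in a class with many low genes, so both are a description. Of 1139 genes with a partner on the opposite strand that was counted at least 10 times higher, 275 rose and none fell, with a median of 1.53. That class also holds protein-coding genes, of which 41 of 379 rose and none fell, with a median of 0.66. Among 14658 genes outside these classes and the ribosomal, mitochondrial, respiratory-chain and hemoglobin classes, 294 rose and 83 fell (2.57%), with a median of -0.04.

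Single genes that overlap another on the opposite strand were read as a percentage of that partner, and of the 4 described here BB365896 alone has a partner at least 10 times higher. Gm15883 was counted at 142 and 124 CPM in WT and at 1102 and 806 CPM in Tg. It rose by 2.80 on the log2 scale (SE 0.26, adjusted p = 0.020). It amounted to 7.68% and 7.19% of its partner Cyp2f2 in WT and 40.8% and 34.8% in Tg. Cyp2f2 itself differed by 0.45 (adjusted p = 0.30), which did not pass. The other barcodes showed the same order for Gm15883 at lower percentages, 2.23%, 2.69%, 15.2% and 11.96% of Cyp2f2.

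Scnn1b, the sodium channel subunit, is overlapped by Cog7, a subunit of a Golgi tethering complex, which lies on the opposite strand. The stretch the 2 genes share is chr7:121879363-121918514. Cog7 was at 45.8 and 44.0 CPM in WT and 205 and 138 CPM in Tg, and it rose by 1.90 (SE 0.24, adjusted p = 0.023). It stood at 19.5% and 17.9% of Scnn1b in WT and at 53.4% and 45.3% in Tg, while Scnn1b differed by 0.48 (adjusted p = 0.18). In the other barcodes Cog7 stood higher, at 47.6% and 43.6% of Scnn1b in WT and 85.5% and 76.7% in Tg. BB365896, an antisense transcript within Fam13a, rose by 3.07 (SE 0.36, adjusted p = 0.020) and stood at 0.788%, 0.633%, 7.39% and 4.28% of Fam13a in the 4 mice. Lrrc4 was at 5.00% and 5.04% of Snd1 in WT and 62.6% and 33.0% in Tg. The other barcodes of the 4 mice showed the same order, with BB365896 at 0.74%, 0.61%, 6.04% and 3.30% of Fam13a. Lrrc4 was at 3.81%, 4.35%, 54.1% and 29.2% of Snd1 there. Whether counting used strand is not given in the sources used here, and without strand the reads of a gene and its opposite partner cannot be told apart. BB365896, Cog7 and Lrrc4 were picked after their values had been seen.

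The class of 1139 genes with a partner at least 10 times higher, which does not hold Gm15883, Cog7 or Lrrc4, was also read as a share of all UMIs. It was drawn from the genes tested, so genes that entered through Tg alone are part of it. In members it held 0.364% and 0.349% of UMIs in WT and 0.945% and 0.694% in Tg. The other barcodes held 0.395%, 0.373%, 0.922% and 0.660%, ciliated-like nuclei 0.648%, 0.429%, 1.21% and 0.894%, and free RNA 0.501%, 0.467%, 0.858% and 0.731%. In each of these kinds of barcode both Tg values were above both WT values.

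**Figure D3:**
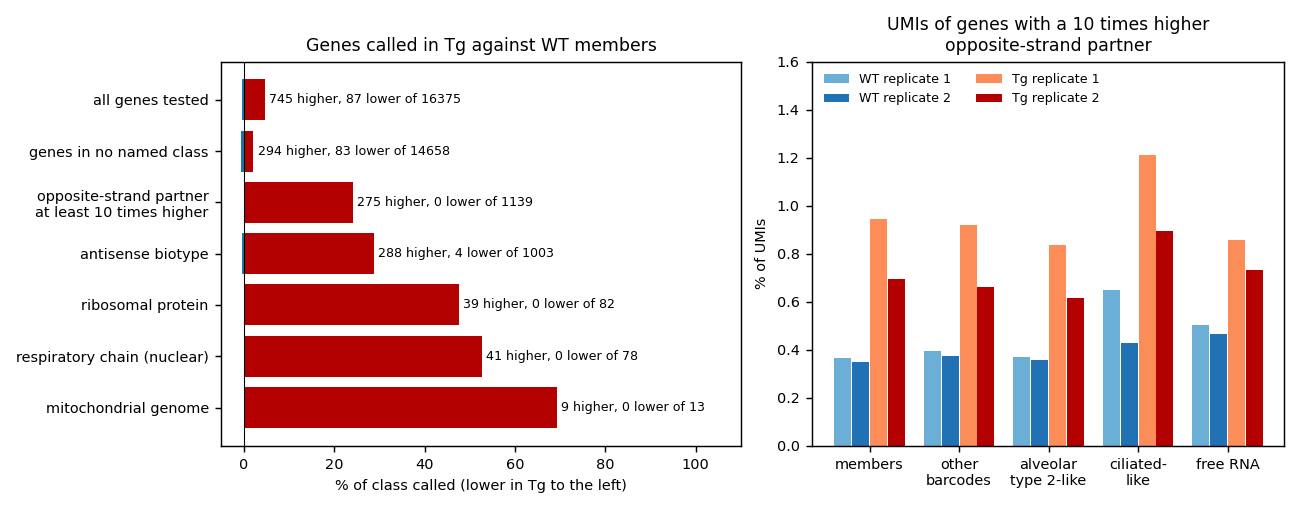
Left, percent of the genes of each class with an adjusted p under 0.05 in club secretory nuclei, higher in Tg to the right of 0 and lower to the left; right, percent of UMIs from genes with a partner at least 10 times higher on the opposite strand, 1 bar per mouse in 5 kinds of barcode. Antisense genes had 288 of 1003 higher and ribosomal protein genes 39 of 82, and on the right both Tg bars exceed both WT bars in each kind of barcode. Low genes could enter a class through Tg alone.

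Many genes of the ribosome and the respiratory chain rose as well, against 4.55% of all genes tested that rose and 8394 of 16375 with a positive fold change. Of 82 ribosomal protein genes, 39 rose and none fell, and 82 had a positive fold change with a median of 1.84. The others did not pass. Of 78 nuclear genes of the respiratory chain, 41 rose and none fell, with a median of 1.28. All 4 hemoglobin genes rose and 9 of 13 genes of the mitochondrial genome rose. Ribosomal protein genes held 0.386%, 0.987%, 2.36% and 2.24% of member UMIs in the 4 mice, and 0.569%, 1.96%, 4.99% and 5.00% of free RNA.

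Among single genes that rose were Hbb-bs, Sftpc and Fth1. Hbb-bs, the adult beta globin of red cells, was at 36.4 and 53.6 CPM in WT and 1276 and 814 CPM in Tg, and rose by 4.51 (SE 0.34, adjusted p = 0.013), while in the other barcodes it was at 49.5, 65.4, 1557 and 1109 CPM. Sftpc, the surfactant protein of alveolar type 2 cells, was at 505 and 1294 CPM in WT and 4681 and 4011 CPM in Tg (log2 fold change 2.26, SE 0.46, adjusted p = 0.047). In the other barcodes it was at 715, 1626, 5843 and 5349.6 CPM. Both were below the other barcodes of the same mouse in all 4 mice. Of the 8 alveolar type 2 markers, Sftpc among them, 4 had a negative fold change, with a list median of -0.22. Fth1, which stores iron as ferritin, was at 69.4, 202, 926 and 716 CPM in members and rose by 2.58 (SE 0.47, adjusted p = 0.038). In free RNA it was at 165, 422, 2101 and 1625 CPM. With free RNA subtracted, Hbb-bs went from 4.51 to 0.97 and did not pass, and Fth1 and Sftpc could not be tested. Against free RNA the difference was -0.83 for Hbb-bs (SE 0.45), -0.06 for Fth1 (SE 0.32) and -0.35 for Sftpc (SE 0.28), and none of these passed. Fth1 and Hbb-bs were chosen after their values had been seen.

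The 10 largest rises lay in genes hardly counted in WT. Of these, 7 had no UMI in either WT mouse, and the fold against a floor of 3 counts over the group was at least 7.08-fold higher for Hyal5, a hyaluronidase gene, at 17 and 29 UMIs in Tg. 0610031O16Rik had 1 and 0 UMIs in WT and 56 and 35 in Tg, a ratio of 42.0 with a counting interval of 7.35 to 1678. Ptger1, a prostaglandin E2 receptor, had 0 and 1 UMIs in WT and 33 and 41 in Tg, a ratio of 34.2 with an interval of 5.95 to 1368. Gm27200 had 0 and 5 UMIs against 189 and 106. Antisense transcripts were 8 of the 10, and the genes with no UMI in WT had passed the filter through Tg alone. None of the 10 passed in all of the 14 alternatives that kept free RNA and Tg replicate 1. Hyal5 lost its call without WT replicate 1, with a fitted log2 fold change of 7.28 against 7.06 with all mice. With no UMI in WT the counts do not set the size of these fitted values. The bound of 7.08-fold above is on the plain scale. 0610031O16Rik lost it without WT replicate 2, at 4.13 against 5.27. Ptger1 lost it without Tg replicate 2, at 5.03 against 4.90. Each of these fits leaves 1 mouse in a group. The adjusted p was 0.0565 for Gm27200 with members thinned to 1500 UMIs.

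Among the 10 largest falls was Camk1d, while of 8 macrophage and monocyte markers none passed, 2 had an unadjusted p under 0.05, DESeq2 called 0 and 3 had a positive fold change. Camk1d, a calcium and calmodulin dependent kinase, was at 3619 and 2169 CPM in WT and 398 and 374 CPM in Tg, and fell by 2.96 on the log2 scale (SE 0.36, adjusted p = 0.020). In the other barcodes it was at 5016, 2637, 579 and 636 CPM. Gm48099, a lincRNA on chromosome 14, was at 87.4 and 98.2 CPM in WT and 6.48 and 7.33 CPM in Tg (log2 fold change -3.78, SE 0.17, adjusted p = 0.0037). Acod1, which makes itaconate in macrophages, was at 14.3, 6.40, 0.0762 and 0.394 CPM and fell by 5.31 (adjusted p = 0.025). Ccl24 and Ccl7, chemokines of myeloid cells, fell by 3.18 and 3.41, and with free RNA subtracted Ccl24 turned to 6.82. Tnip3, an inhibitor of NF-kB signalling, fell by 2.97. Macrophage markers summed to 1714 and 4035 CPM in WT members and to 1350 and 3047 CPM in Tg members, so the groups overlapped, and their part in the falls was not tested. The other 4 of the 10 largest falls were Tarm1, Gm30667, 4930459C07Rik and Gm15564. Of the 10, Gm48099, Camk1d and Gm15564 passed in all of the same 14 alternatives.

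Nkx2-1 and Muc5ac fell as well. Nkx2-1, the transcription factor of lung epithelium, was at 271 and 237 CPM in WT and 103 and 135 CPM in Tg, and fell by 1.14 (SE 0.20, adjusted p = 0.036). The other barcodes gave 262, 216, 91.6 and 129 CPM, and alveolar type 2-like nuclei 360, 289, 151 and 195 CPM, so the difference was not seen in members alone. Muc5ac, the gel-forming mucin of goblet cells, was at 18.96 and 10.5 CPM in WT and 3.81 and 3.30 CPM in Tg, and fell by 2.10 (SE 0.39, adjusted p = 0.038). Groups did not overlap for either gene. Without Tg replicate 1, a fit with 1 Tg mouse, neither passed and both kept a negative fold change. Nkx2-1 passed in the 14 alternatives that kept free RNA and Tg replicate 1. Muc5ac did not pass with at least 5 of the 6 defining genes (adjusted p = 0.0846) or with members thinned (0.0663). It also did not pass without Tg replicate 2, where 1 Tg mouse was left. After free RNA was subtracted the log2 fold change was -1.93 for Nkx2-1 and 8.35 for Muc5ac.

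**Figure D4:**
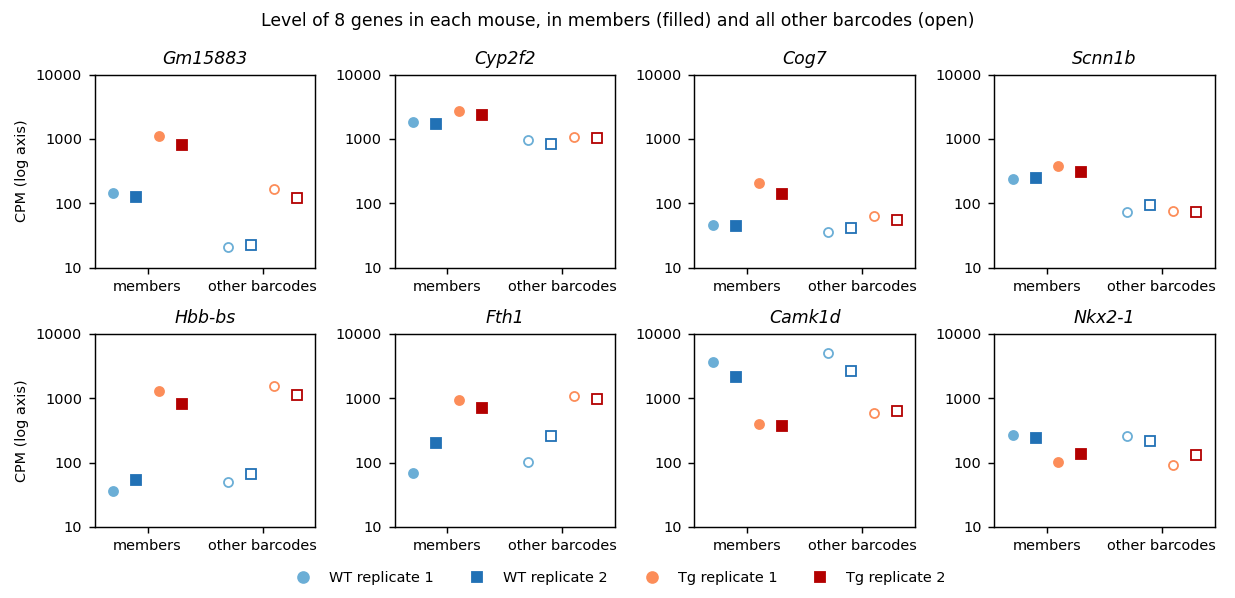
CPM (log axis) of 8 genes in each mouse, in club secretory nuclei (filled) and in all other barcodes with 1500 or more UMIs (open). Camk1d lies at 3619 and 2169 CPM in WT and 398 and 374 CPM in Tg members, and Gm15883 at 142 and 124 against 1102 and 806 CPM, and both keep that order in the other barcodes.

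The lists below are read against all 16375 genes, of which edgeR called 5.08%, 28% had an unadjusted p under 0.05 and DESeq2 called 10.3%. None of the 25 club markers tested passed in edgeR on the members as chosen, while 22 had a positive fold change with a median of 0.64, and 13 had an unadjusted p under 0.05. DESeq2 called 6 of the 25, Pon1, Hp, Cbr2, Scgb3a2 and Scgb1a1 with a positive fold change and Pigr with a negative one. Scgb1a1 was at 7683, 9214, 38736 and 14668 CPM and its log2 fold change was 1.64 (SE 0.62, adjusted p = 0.15), and without Tg replicate 1 it was 0.76. It passed in edgeR with at least 5 of the 6 defining genes (1.85, adjusted p = 0.0209), and also when every counted gene was tested (1.68, adjusted p = 2.69e-11). Those fits called 1423 of 13235 and 3593 of 24726 genes, larger parts than in the main fit. Pon1, a lactonase, came closest at 34.4, 40.4, 89.0 and 64.3 CPM (adjusted p = 0.052). Of 42 xenobiotic and retinoid genes 15 had an unadjusted p under 0.05, DESeq2 called 7 and by edgeR 2 rose, Gstm1, a glutathione transferase, by 1.08 and Aldh2, the mitochondrial acetaldehyde dehydrogenase, by 0.94. Of 28 secreted airway proteins 12 had an unadjusted p under 0.05, DESeq2 called 8 and by edgeR 1 fell, Muc5ac, and of 6 goblet markers tested it was again the one that fell.

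Of 25 ion and fluid transport genes none passed in edgeR, 8 had an unadjusted p under 0.05 and DESeq2 called 3, Slc26a4, Slc4a7 and Kcnj15. Slc26a4, the anion exchanger pendrin, was at 377 and 113 CPM in WT and 17.1 and 44.4 CPM in Tg (log2 fold change -3.06, adjusted p = 0.055). Of 30 airway transcription factors 5 had an unadjusted p under 0.05 and DESeq2 called 3. By edgeR Id3, an inhibitor of helix-loop-helix factors, rose by 1.80 and Nkx2-1 fell. All 13 proliferation genes tested had a negative fold change, with a median of -0.75. None of the 13 passed in edgeR, 6 had an unadjusted p under 0.05 and DESeq2 called 2, Kif15 and Kif11. With 5.08% of all genes called, edgeR counts of 0 to 2 per list of this size are near the background.

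The lists closest to the study's question gave few calls. Of 26 Notch pathway genes none passed and 7 had an unadjusted p under 0.05 by edgeR, while DESeq2 called 1, Hes1. Hes1, a target of Notch, was at 100, 99.8, 279 and 163 CPM (log2 fold change 1.11, SE 0.28, adjusted p = 0.073), and the groups did not overlap. By edgeR it passed with no filter, with at least 5 of the 6 defining genes (adjusted p = 0.021) and with the replicate block (0.00239). With 1 Tg mouse in the fit the log2 fold change of Hes1 was 0.67 without Tg replicate 1 and 1.47 without Tg replicate 2. Jag1, a Notch ligand, was at 120, 78.8, 54.5 and 64.3 CPM (-0.79, adjusted p = 0.11), and the receptors Notch2 and Notch3 had values of -0.11 and 0.52. Jag1 passed with no filter (adjusted p = 0.00386) and with the replicate block (0.0129), and turned to 1.49 with free RNA subtracted. With 1 WT mouse in the fit Jag1 was at -0.40 without WT replicate 1 and -1.12 without WT replicate 2. Notch3 passed with the replicate block (adjusted p = 0.0474). Hey1, Hey2 and Heyl, further Notch targets, were below 5 CPM in every mouse. Of 25 p53 and senescence genes 7 had an unadjusted p under 0.05, DESeq2 called 2 and by edgeR 1 fell, Ccl2, a monocyte chemokine, and Cdkn1a, the cell cycle inhibitor p21, was at 24.5, 34.1, 29.2 and 51.1 CPM (0.42, adjusted p = 0.37). The mouse Terf2 gene was at 55.7, 54.0, 53.4 and 57.3 CPM (-0.03, SE 0.15, adjusted p = 0.93).

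Of 27 hypoxia response genes 8 had an unadjusted p under 0.05, DESeq2 called 3 and by edgeR 1 rose, Aldoa, a glycolytic enzyme, by 1.06, and with free RNA subtracted it turned to -0.83. Of 19 clock genes 5 had an unadjusted p under 0.05, DESeq2 called 4 and by edgeR 1 rose, Dbp, a clock output factor, from 28.7 and 28.2 CPM in WT to 60.5 and 56.6 CPM in Tg (log2 fold change 1.00, adjusted p = 0.032). Of 28 polarity and junction genes Cldn3 rose, with 6 unadjusted and 1 by DESeq2. Of 21 calcium handling genes 8 had an unadjusted p under 0.05, DESeq2 called 4 and by edgeR Atp2a3, a calcium pump of the endoplasmic reticulum, fell by 0.96. Among 8 alveolar type 2 markers Sftpc rose by edgeR, while 4 had a positive and 4 a negative fold change, with a median of -0.22. Of these 8, 4 had an unadjusted p under 0.05 and DESeq2 called 2, Sftpc and Lamp3. Of 5 markers of mesothelium 3 had an unadjusted p under 0.05, DESeq2 called 2 and by edgeR Msln rose, by 1.38. By edgeR none passed of 26 immediate early and heat shock genes, of which 9 had an unadjusted p under 0.05 and DESeq2 called 2, Hspb1 and Hspa8. None passed of 12 glucocorticoid response genes (2 unadjusted, 0 by DESeq2), of 7 MHC class II genes (2 unadjusted, 1 by DESeq2), of 23 genes of the secretory pathway and unfolded protein response (4 unadjusted, 1 by DESeq2) or of 30 developmental signals (0 by either).

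To see what was particular to members, their genotype difference was set against that of other nuclei of the same mice in 1 fit, with the mouse as a block. Against 24259 alveolar type 2-like nuclei the difference was unequal for 777 of 17519 genes (4.44%), 633 higher (3.61%) and 144 lower (0.822%), and 24 of the 832 were among them, of which 16 were higher in Tg members and 8 lower. Cog7 rose more in members than in alveolar type 2-like nuclei, by 1.47 on the log2 scale (SE 0.13, adjusted p = 1.18e-07), and there it was at 33.6, 40.9, 53.3 and 47.2 CPM. Against 3885 ciliated-like nuclei none of 16096 genes passed in edgeR and 536 had an unadjusted p under 0.05. Against free RNA none of 15174 passed and 518 had an unadjusted p under 0.05, at 36353, 317345, 45691 and 351398 UMIs of free RNA. With the barcodes of 300 to 800 UMIs in place of those with 10 to 100, 4690 genes passed. DESeq2 was not run on these contrasts.

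The defining genes themselves give the values behind part of that contrast. Atp2b2 was at 17.99 and 20.8 CPM in WT and 5.84 and 7.24 CPM in Tg in alveolar type 2-like nuclei, and at 218, 235, 202 and 171 CPM in members. Nwd2 was at 37.9, 37.5, 8.65 and 13.7 CPM in alveolar type 2-like nuclei. The members had been chosen on these genes and the background level set the threshold, so these values are a description.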

How the data were processed

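The authors aligned the reads of 4 single-nucleus libraries and deposited, per library, a matrix of UMI counts per gene and barcode. Per the submitters' processing notes they used Cell Ranger 6.1.1 with mm10. By the study's methods it was run with the option to include introns. Whether counting used strand is not given in the sources used here. The matrices are unfiltered, with 2057932 to 2654238 barcodes each, and the authors' cluster names were not used here. The members and gene lists were chosen with earlier results of these data known.

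Barcodes with 1500 or more UMIs entered, and members were chosen by the rule given above. The study's removal of low-quality nuclei, multiplets and ambient RNA was not applied. Counts of members were summed per mouse. Genes were tested with edgeR 4.0.16 (R 4.3.3, TMM scaling, filterByExpr with a minimum count of 10, quasi-likelihood test, Benjamini-Hochberg adjustment over all genes tested, threshold 0.05). Every adjusted p in the text is from this test unless another tool is named. Contrasts with other nuclei used an interaction term and a term for each mouse. P-values measure the spread between 2 mice a group, and no source says which mice shared a day of preparation. DESeq2 1.42.0 was an alternative.

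Alveolar type 2-like and ciliated-like nuclei met rules of the same form with their own markers, at 1.5 times and 3 times the level in shallow barcodes. Nuclei of the other airway secretory class met such a rule with the excluded genes, at 3 times. Members that also met such a rule, at 3 times, for 1 of 11 other classes were doublet candidates, were kept, and were left out in an alternative. Free RNA was the sum of barcodes with 10 to 100 UMIs. Antisense and strand labels came from GENCODE vM21, which matched 32158 of 32285 genes (99.6%). A fold against a group with no count was set against 3 counts over the group, and covers counting error only.

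Genes were named by rule: the defining and excluded genes, 12 by ratio to other barcodes, the 10 largest rises and falls, list genes that passed, the club markers, and the genes the study is about. Others are said to be chosen after their values were seen, as were Cog7, BB365896, Lrrc4, Igf2r and Slc16a11. Simulated sums were tested in the same way: of 200 genes changed 4-fold 79% were recovered, with 4.82% of calls false, and of 200 changed 2-fold 30% were recovered, with 6.25% false. A few results are not reported here. Figures were drawn with matplotlib 3.10.9.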

Additional observations from a re-analysis of the deposited data

Results flagged for a closer look

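In 4 genes that rose in Tg club secretory nuclei, the rise was larger than that in alveolar type 2-like nuclei of the same mice by edgeR's interaction term. The excess on the log2 scale was 1.47 for Cog7 (adjusted p = 1.18e-07), 1.06 for BB365896 (adjusted p = 0.038), 0.75 for Slc16a11 (adjusted p = 0.000636) and 0.51 for Igf2r (adjusted p = 0.00227). Cog7 is counted against Scnn1b, BB365896 against Fam13a and Igf2r against Airn, each on the opposite strand. In members Igf2r amounted to 10.6% and 9.33% of Airn in WT and 21.96% and 17.4% in Tg. Slc16a11, a monocarboxylate transporter, was at 61.2 and 50.1 CPM in WT and 277 and 175 CPM in Tg. Why the differences are unequal was not tested.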

How the results depend on the processing

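Of 832 genes called in club secretory nuclei, 372 also passed in all 14 alternatives besides free RNA subtraction and the fit without Tg replicate 1. The count was 3593 with no filter on low counts, 1423 with at least 5 of the 6 defining genes, 537 after thinning members to 1500 UMIs, 0 with free RNA subtracted and 1684 with DESeq2. With 1 mouse left out it ranged between 6 and 1588, the ends being the fits that lacked Tg replicate 1 and WT replicate 2. With the replicate block it was 3371. Replicate numbers are not stated to pair the mice and the deviations of same-numbered mice correlated at 0.178, so with 2 numbers they are read as numbers only. The contrast with ciliated-like nuclei gave 59 genes with no filter. The contrast with free RNA gave 4690 when barcodes with 300 to 800 UMIs stood for it. With free RNA subtracted, 498 of the 577 called genes that could be tested kept their sign. Among the genes named, those that turned were Ccl24 (6.82), Muc5ac (8.35), Aldoa (-0.83), Jag1 (1.49), Notch2 (0.20) and Terf2 (0.48). The cause was not tested. Among genes that were not called, Col23a1 turned to -0.066, -0.071, -0.082 and -0.054 with 3 times the share, 5 genes, 3000 UMIs, and 1 threshold at 3 times with 3000 UMIs, and Kcnk2 to -0.12, -0.071, -0.13 and -0.12 under the same 4. Terf2 turned to 0.018 with no filter, 0.0058 with doublet candidates left out and 0.086 with thinning, Hey1 to 0.053 with 5 genes and 0.015 with thinning, and Notch2 to 0.013 with thinning. With 1 mouse left out, Kcnk2 ranged from -0.010 to 0.30, Terf2 from -0.11 to 0.041, Cdkn1a from -0.0086 to 0.77 and Hey1 from -0.68 to 0.17. The share of members kept its direction in every alternative. The free RNA sums of 36353 and 45691 UMIs in WT replicate 1 and Tg replicate 1 limit what can be read from low genes in that profile.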
